A study of Mus musculus with 3 samples.

Results

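The replication-dependent histone genes encode the bulk of the histones H1, H2A, H2B, H3 and H4 that package newly copied DNA. They were taken as every gene whose symbol begins with Hist1h, Hist2h, Hist3h or Hist4h, and reads on the transcripts of a symbol were added up within each library. This gave 65 genes of the 24006 gene symbols in the tables, with 6 genes for H1, 16 for H2A, 18 for H2B, 12 for H3 and 13 for H4. All 65 are annotated as protein coding in GENCODE M21, on build GRCm38. The Hist1 group holds 53 genes between positions 21715763 and 23934851 of chromosome 13, the Hist2 group holds 9 on chromosome 3, the Hist3 group holds 2 on chromosome 11 and Hist4h4 lies alone on chromosome 6.

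The study sequenced polyadenylated RNA of mouse embryonic stem cells, cultured cells that can form every tissue of the embryo. The groups were wildtype cells (clone WT26), cells labelled DAXX-/- (clone KO2-3) and cells labelled ATRX-/- (clone KO1-44), with 1 library each. DAXX is a chaperone that carries H3.3, a histone made also outside S phase, and ATRX is the remodelling enzyme it works with. Every clone was male, isogenic, of C57BL/6x129sV background and grown with serum and leukaemia inhibitory factor, on gelatin after early passages on irradiated feeder cells; the knockouts came from CRISPR targeting. Each genotype is thus represented by 1 clone and 1 library, so a difference of genotype and a difference of clone or culture cannot be told apart, and no difference below has a replicate check.

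Transcripts of these genes are made mainly during S phase, when DNA is copied. As a rule they carry no poly(A) tail. Their end is formed by a cut just behind a short stem-loop, which the stem-loop binding protein SLBP holds and which a particle with the U7 RNA and the proteins LSM10 and LSM11 directs. Some of these genes can also give a tailed transcript from a poly(A) signal farther downstream, as is known for cells that leave the cycle. Libraries of polyadenylated RNA select against the tailless form, so the values below are of the reads that remained in these libraries and not of the genes' whole output.

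The stem-loop is the element that sets these genes apart, and its letters are shown because they set H4 apart from the other histone types. The motif searched, on both strands, was the arm GGNNCT, the loop TTTN and the arm AGNNCC in direct succession. It was found in the GENCODE M21 transcript of 40 of the 65 genes, in 4 of H1, 9 of H2A, 8 of H2B, 8 of H3 and 11 of H4. It lay behind the stop codon in all 41 transcripts that held it, at a distance of 21 to 58 bases (median 31). Among transcripts whose deposited length equals that in M21, it was in 25 of 48 of these histone genes and in 41 of 41495 of other genes (0.0988%). On the opposite strand it was in 19 transcripts of equal length (0.0457%), none of them of these histone genes. A transcript without it may be annotated without the stretch behind its stop codon, and no match says only that the letters are not in that transcript. Each of the 6 spellings is given once, in a window read 5′ to 3′ from M21, with the 16 bases of the motif in capitals.
Hist1h1c: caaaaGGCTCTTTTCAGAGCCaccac
Hist1h3c: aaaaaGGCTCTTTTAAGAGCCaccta
Hist2h2ac: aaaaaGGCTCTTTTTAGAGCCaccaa
Hist1h4d: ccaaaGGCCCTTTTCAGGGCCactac
Hist1h4i: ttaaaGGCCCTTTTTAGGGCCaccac
Hist1h4j: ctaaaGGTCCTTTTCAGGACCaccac
The capitals lie at chr13:23739512-23739527 (plus strand) for Hist1h1c, chr13:23745047-23745062 (minus) for Hist1h3c, chr3:96220418-96220433 (minus) for Hist2h2ac, chr13:23581950-23581965 (plus) for Hist1h4d, chr13:22040966-22040981 (minus) for Hist1h4i and chr13:21735437-21735452 (plus) for Hist1h4j. The spelling of Hist1h1c was shared by 22 genes, 3 of H1, 8 of H2A, 6 of H2B and 5 of H3. The spelling of Hist1h3c was shared by 6 genes of H1, H2B and H3, and that of Hist2h2ac was found in that gene alone. The 11 H4 genes with a motif had the other 3 spellings, 7 as in Hist1h4d, 2 as in Hist1h4i and 2 as in Hist1h4j, and no gene of another type had any of these.

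Reads on transcripts numbered 13981915 in the wildtype library, 11224100 in the DAXX knockout library and 13988376 in the ATRX knockout library. Atrx had 4582, 3576 and 1800 reads, and Daxx had 1125, 623 and 972, so each targeted gene was lowest in the library labelled as its knockout. Levels are given as CPM, the count scaled to a library size adjusted by trimmed mean of M values. In place of a test, a size rule was used: a call needs a 95% counting interval that lies wholly past a 2-fold difference. Genes under 1 CPM in both libraries of a comparison were left out of it. Intervals, in parentheses after a log2 fold, cover counting error only and take each read as counted once. Where 3 read numbers follow a gene, they are unscaled and in the order wildtype, DAXX-/-, ATRX-/-, and the DAXX-/- library is the smallest; where 2 log2 folds follow, they are for DAXX-/- and then ATRX-/- against wildtype, after scaling.

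Histone cluster genes took few reads. In all 65 together there were 1098 reads in wildtype, 963 in DAXX-/- and 1211 in ATRX-/-, or 0.00785%, 0.00858% and 0.00866% of the reads on transcripts. Reads were seen on 63, 61 and 63 of the 65 genes, and the median gene had 11, 9 and 10. Hist1h2aa was the member with no read in any library, which allows up to 0.207, 0.275 and 0.217 CPM. Hist2h2ab had 1 read, in the ATRX knockout. A gene at 1 CPM has 14.5, 10.9 and 13.8 reads in the 3 libraries, so most of the family was measured with little precision.

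Per length, as CPM per kilobase averaged over the 3 libraries, the most abundant gene was Hist1h2bc, an H2B gene, at 13.0. A band of 11 H2A genes followed, from Hist1h2ah at 6.49 and Hist1h2ap at 6.46 down to Hist2h2aa2 at 4.75, and the H4 gene Hist1h4i stood among them at 6.02. The other 5 H2A genes were at 1.14 or below. The leading H3 gene was Hist1h3g at 3.53 and the leading H1 gene was Hist1h1c at 2.81. Median levels by type were 5.52 for H2A, 1.41 for H2B, 1.26 for H3, 0.839 for H4 and 0.734 for H1. Replication-independent genes of the same types were far higher: in wildtype, H2A genes of the clusters summed to 52.2 CPM per kilobase against 1743 for H2afz, H2afx and the other separate H2A variants. For H3 the sums were 18.1 and 1373, the latter including the H3.3 genes H3f3a and H3f3b, and for H1 they were 6.17 and 52.5.

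**Figure D1:**
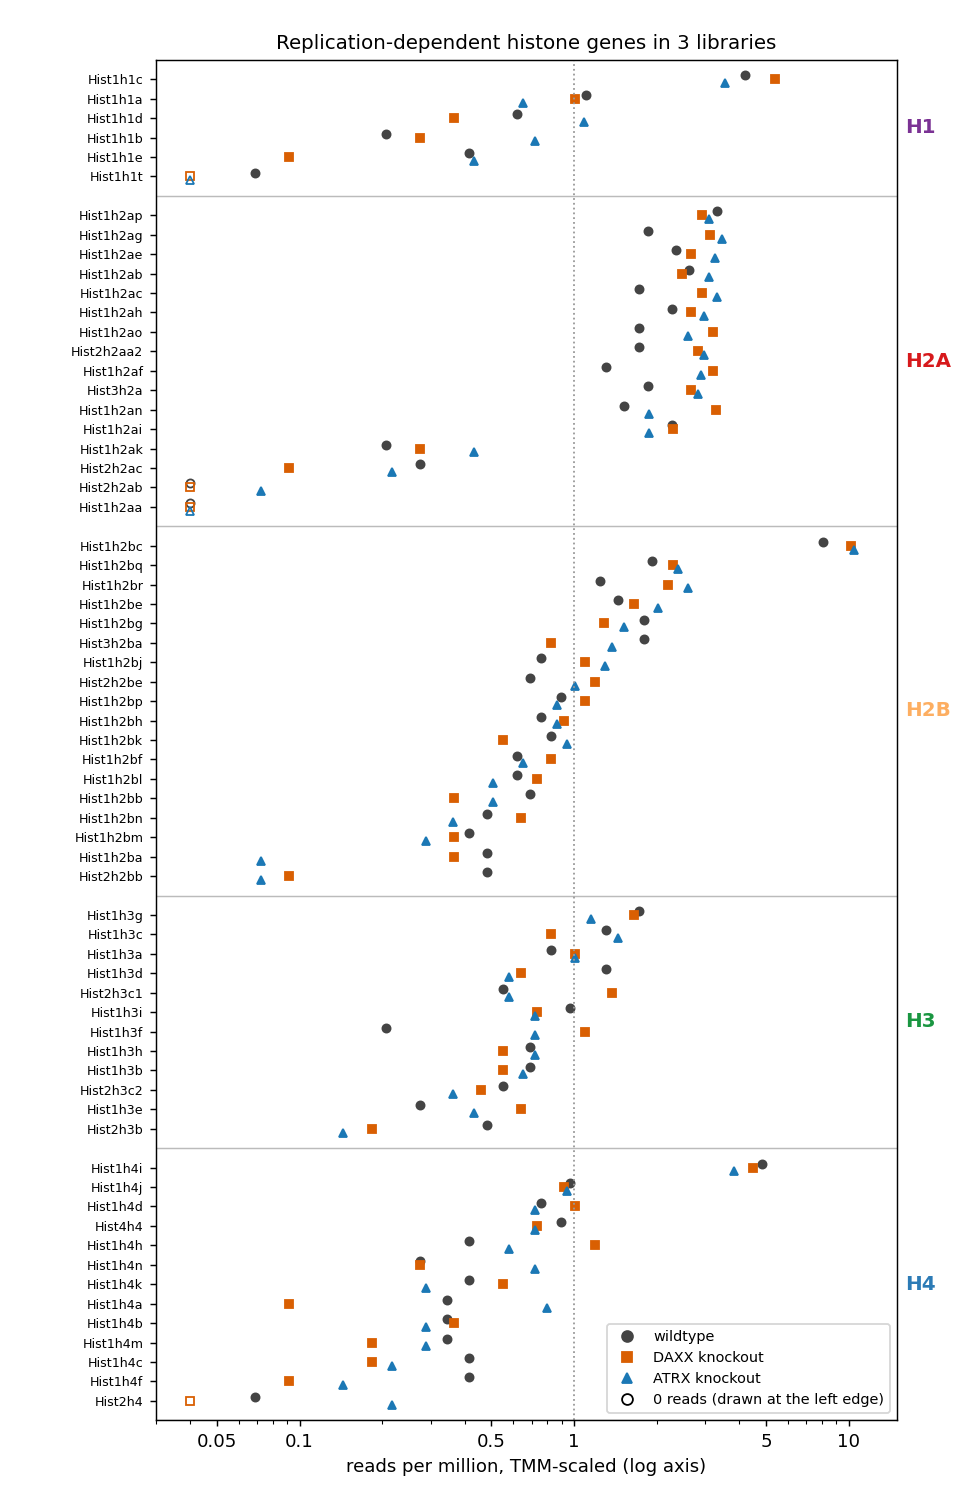
Levels of the 65 replication-dependent histone genes in CPM (reads per library scaled by size, log axis), by histone type, with 1 symbol for each of the 3 libraries; open symbols at the left edge stand for 0 reads and the dotted line marks 1 CPM. Most genes lie below or around 1 CPM, and Hist1h2bc, Hist1h1c and Hist1h4i stand to the right of the other genes of their types.

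H2A was the type whose summed level was higher in both knockout libraries than in wildtype by more than counting error under each scaling tried. Its 16 genes had 363 reads in wildtype, 378 in DAXX-/- and 484 in ATRX-/-, which is 25.01, 34.6 and 35.0 CPM. Against wildtype this was a log2 fold of 0.47 (interval 0.26 to 0.68) in DAXX-/- and 0.48 (0.28 to 0.68) in ATRX-/-, or 38.4% and 39.8% more. Between the knockouts the log2 fold was 0.01 (-0.18 to 0.21). Both comparisons use the same wildtype library, so a low value there would move both. In bulk RNA, a change in the number of cells in S phase and a change of RNA per cell cannot be told apart.

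The other types moved less. H2B summed to 23.97 CPM in wildtype, 26.6 in DAXX-/- and 27.8 in ATRX-/-, with log2 folds of 0.15 (-0.08 to 0.38) and 0.21 (0.00085 to 0.43). The lower bound of the latter was below 0 under each of the 4 other scalings or counts tried. H3 summed to 9.58, 9.71 and 8.52 CPM, with log2 folds of 0.02 (-0.36 to 0.39) and -0.17 (-0.53 to 0.20), so it was level with wildtype in one knockout and lowest in the other, within counting error. H4 summed to 10.5, 10.1 and 9.75 CPM, with -0.06 (-0.42 to 0.31) and -0.10 (-0.45 to 0.24). H1 summed to 6.61, 7.14 and 6.43 CPM, with 0.11 (-0.34 to 0.56) and -0.04 (-0.47 to 0.39). The H1, H3 and H4 intervals all include no change. Their upper bounds lay below the point value of the H2A fold in every case but H1 in the DAXX comparison. The H2A intervals begin at 0.26 in the DAXX comparison and 0.28 in the ATRX comparison. Only the H3 and H4 intervals of the ATRX comparison lay wholly below the H2A interval, and the others overlapped it. All 65 genes together gave 0.22 (0.09 to 0.35) and 0.21 (0.09 to 0.33), and all but H2A gave 0.08 (-0.08 to 0.24) and 0.05 (-0.10 to 0.20). H2A took 33.1% of the family's reads in wildtype (exact 95% interval 30.3 to 35.9), 39.3% in the DAXX knockout (36.2 to 42.4) and 39.97% in the ATRX knockout (37.2 to 42.8), so the wildtype share lay below both others by more than counting error. No type had an interval beyond 2-fold.

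**Figure D2:**
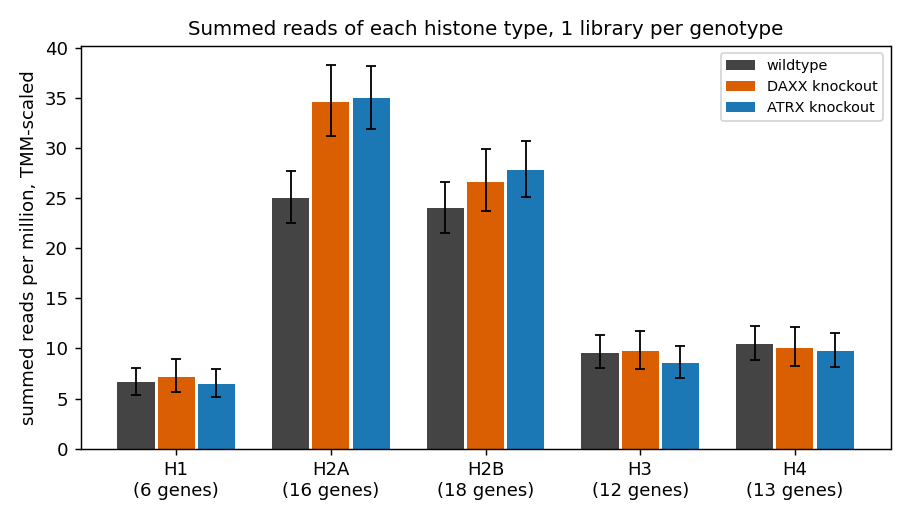
Summed CPM of the genes of each histone type in the wildtype, DAXX knockout and ATRX knockout libraries, from 0, with bars for the exact 95% counting interval of the sum. H2A stands at 25.01 CPM in wildtype and at 34.6 and 35.0 in the knockouts, while the intervals of the 3 libraries overlap for every other type.

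Gene by gene, 0 of the 32 histone cluster genes that passed the level filter were called in the DAXX knockout against wildtype, where 2.04% of 13151 genes were. In the ATRX knockout against wildtype 0 of 28 were called, beside 1.84% of 13230, and between the knockouts 0 of 32, beside 1.13% of 12991. With a limit of 1.5-fold the members called were again 0, beside 4.53%, 5.29% and 3.99% of all genes in the same order. At these depths the rule asks for large differences: a gene with 25 wildtype reads would have needed 61 in the DAXX knockout or 76 in the ATRX knockout to be called higher. The median width of a member's interval was 1.81 on the log2 scale in the DAXX comparison, beside 0.472 over all genes that passed the filter, so a change of 2-fold or more in a single member was often not detectable. Median log2 folds of the filtered members, with a prior count of 1, were 0.30 and 0.33 against wildtype, beside 0.02 over all filtered genes in each, and 0.05 between the knockouts, beside 0.00. Without the level filter, over all 65 genes, they were 0.00, 0.060 and 0.033.

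Counting only whether the interval excluded no change, 5 of 32 members were higher in the DAXX knockout (background 23.7%) and 0 were lower (17.1%). In the ATRX knockout 6 of 28 were higher (background 25.4%) and 0 were lower (21.3%). Between the knockouts 0 of 32 were higher in ATRX (20.7%) and 2 were lower (20.9%). Each share of higher members was below that of all genes, whose counts were deeper. In the DAXX comparison 8 of the 32 members passed the level filter through the DAXX-/- library alone and 3 through wildtype alone; in the ATRX comparison 4 of 28 passed through ATRX-/- alone and 2 through wildtype alone. Such genes tend to lie on the side that let them pass, so these counts and the filtered medians are a description only. The 5 were the H2A genes Hist1h2af, Hist1h2an and Hist1h2ao with Hist1h3f and Hist1h4h, of which the last 2 passed through DAXX-/- alone; the 6 were the H2A genes Hist1h2af, Hist1h2ag, Hist1h2ac and Hist2h2aa2 with the H2B genes Hist1h2bc and Hist1h2br; the 2 were Hist1h1c and Hist1h2an.

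**Figure D3:**
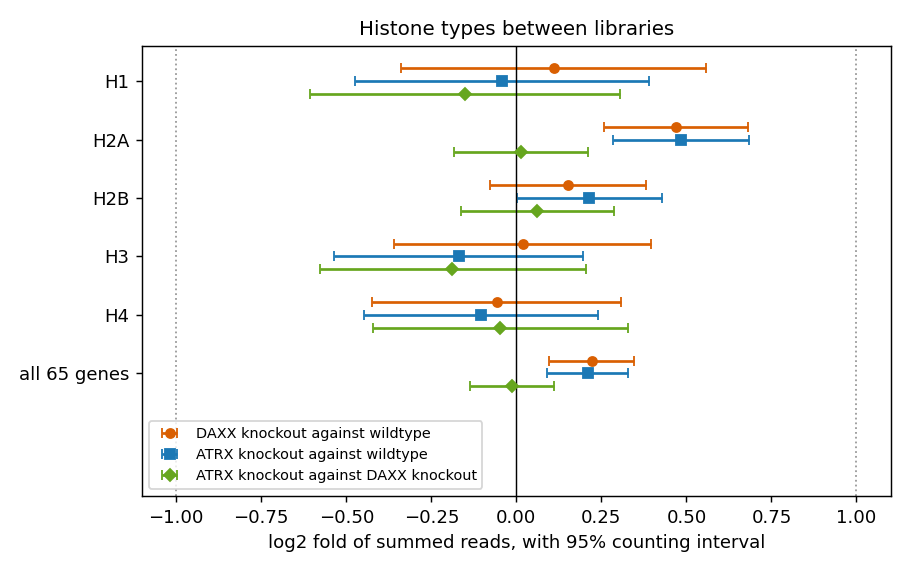
Log2 fold of the summed reads of each histone type and of all 65 genes in the 3 comparisons between libraries, with bars for the 95% counting interval; the dotted lines mark 2-fold in each direction. H2A lies at 0.47 and 0.48 against wildtype and at 0.01 between the knockouts, and no bar reaches 2-fold.

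Among H2A genes, which encode near-identical copies of canonical H2A, Hist1h2af (chr13:23533906-23534304) had 19 reads in wildtype, 35 in DAXX-/- and 40 in ATRX-/-. Its log2 folds were 1.29 (0.45 to 2.18) and 1.14 (0.32 to 2.01), the highest of any H2A gene in each comparison. Hist1h2ag (chr13:22042460-22042944) had 27, 34 and 48 reads, with log2 folds of 0.74 (-0.03 to 1.53) and 0.90 (0.19 to 1.64). Both genes were lowest in wildtype.
Hist1h2an (chr13:21786826-21787218) had 22, 36 and 26 reads, so that it was high in the DAXX knockout, at 1.12 (0.32 to 1.96), and near wildtype in the ATRX knockout, at 0.31 (-0.57 to 1.20). Hist1h2ac had 25, 32 and 46 reads and Hist1h2ae had 34, 29 and 45, with their highest counts in the ATRX knockout. Hist1h2ap, which had the most reads of the type in wildtype, showed no such order, with 48, 32 and 43 reads and log2 folds of -0.17 (-0.87 to 0.50) and -0.09 (-0.72 to 0.53). Of the 12 filtered H2A genes, 10 had a fold above 0 in the DAXX comparison, beside 53.1% of all filtered genes. In the ATRX comparison 10 had one, beside 52.2%, and they were not all the same genes. Many of these genes share sequence and can exchange reads, so they are not separate observations. The counts restate the sum of the type and add no support to it.

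H2A genes share long stretches with one another and with H2afx, the separate gene for H2A.X that marks DNA breaks. In 12 of the 14 H2A transcripts whose length equals that in M21, some windows of 50 bases also occur in H2afx, and 82 of its 1335 windows (6.14%) occur in these genes. H2afx itself had 3060, 3530 and 4118 reads, with log2 folds of 0.62 (0.55 to 0.69) and 0.50 (0.43 to 0.56), and so moved with the H2A sum. That sum was 363, 378 and 484 reads, far fewer than H2afx alone had. Whether reads of H2afx contribute to that sum was not tested. Hist3h2a, which shares no such window with H2afx, had 27, 29 and 39 reads and log2 folds of 0.51 (-0.29 to 1.33) and 0.60 (-0.15 to 1.36). It overlaps Trim17 on the same strand, and reads of the 2 genes cannot be fully told apart. H2A transcripts with at most 50% of their windows shared with length-matched transcripts of other genes numbered 6, with 59, 64 and 90 reads. Their log2 folds were 0.53 (-0.01 to 1.06) and 0.68 (0.19 to 1.18). The 8 with more sharing had 245, 253 and 303 reads, 0.46 (0.20 to 0.72) and 0.37 (0.13 to 0.62). Both sets had point values above 0, but the interval of the less shared one includes no change in the DAXX comparison. Most reads of that set came from Hist3h2a and from Hist2h2aa2, which had 25, 31 and 41. In Hist2h2aa2, 74 of 479 windows also occur in H2afx, so the less shared set is not free of sequence shared with H2afx.

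H2B genes encode the partner of H2A in the nucleosome. Hist1h2bc (chr13:23684199-23692908) had 117, 111 and 145 reads, the most of any member, and took 33.6%, 38.1% and 37.7% of the type's reads. Its log2 folds were 0.33 (-0.05 to 0.72) and 0.38 (0.02 to 0.74). Hist1h2br had 18, 24 and 36 reads, with 0.83 (-0.12 to 1.79) and 1.07 (0.21 to 1.97), the latter the highest H2B fold among filtered genes in that comparison. Hist1h2bq had 28, 25 and 33 reads, and Hist1h2be had 21, 18 and 28, each with intervals that include no change.
Hist3h2ba (chr11:58948920-58949533) went the other way, with 26, 9 and 19 reads and log2 folds of -1.12 (-2.40 to 0.02) and -0.38 (-1.32 to 0.52). It shares no window of 50 bases with length-matched transcripts of other genes. Its DAXX-/- count was the lowest of the 3, and it passed the level filter in that comparison through wildtype alone. H2B transcripts with at most 50% sharing summed to -0.33 (-0.99 to 0.30) and -0.27 (-0.87 to 0.32), and those with more sharing to 0.43 (-0.00 to 0.86) and 0.23 (-0.19 to 0.65). All 4 intervals include no change, and neither set holds Hist1h2bc, whose length differs from that in M21.

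H3 genes encode the replication-coupled H3.1 and H3.2, as opposed to H3.3. Hist1h3g had 25, 18 and 16 reads, Hist1h3c had 19, 9 and 20, and Hist1h3a had 12, 11 and 14. Hist1h3d (chr13:23575763-23577011) had 19, 7 and 8 reads, with log2 folds of -1.03 (-2.52 to 0.28) and -1.18 (-2.58 to 0.08). It was lower in both knockouts, within counting error, and passed the level filter through wildtype alone.
Hist1h3f (chr13:23544052-23545312) showed the opposite order, with 3 reads in wildtype, 12 in DAXX-/- and 10 in ATRX-/-. Its log2 fold of 2.41 (0.52 to 4.88) in the DAXX knockout rests on 3 wildtype reads, and it passed the level filter only through the DAXX-/- library, in which it is high. In the ATRX comparison it did not reach the level filter. Hist2h3c1 (chr3:96246685-96248509) was highest in the DAXX knockout, with 8, 15 and 8 reads and 1.32 (-0.01 to 2.76) there. The 3 H3 transcripts with at most 50% sharing summed to 0.87 (0.07 to 1.69) in the DAXX knockout, against 0.02 for the type, from 24, 33 and 28 reads.

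H4 encodes the partner of H3, and all its genes in this family encode the same protein. Hist1h4i (chr13:22040636-22041362) had 70, 49 and 53 reads and took 46.1%, 44.5% and 39.3% of the type's reads, with log2 folds of -0.10 (-0.66 to 0.44) and -0.33 (-0.88 to 0.20). Hist1h4j had 14, 10 and 13 reads, Hist1h4d had 11, 11 and 10, and Hist4h4 had 13, 8 and 10. None of these stood apart between libraries. Hist1h4h (chr13:23531050-23531519) had 6, 13 and 8 reads, with 1.53 (0.03 to 3.21) in DAXX-/- and 0.48 (-1.23 to 2.29) in ATRX-/-.

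H1 genes encode the linker histones, which bind DNA between nucleosomes. Hist1h1c (chr13:23738808-23740367), for H1.2, had 61, 59 and 49 reads and took 63.5%, 75.6% and 55.1% of the type's reads. It was lower in the ATRX knockout than in the DAXX knockout, at -0.61 (-1.19 to -0.04), and its intervals against wildtype include no change. Hist1h1a had 16, 11 and 9 reads, Hist1h1b had 3, 3 and 10, and Hist1h1d had 9, 4 and 15. Hist1h1b and Hist1h1d thus had their highest counts in the ATRX knockout and Hist1h1a its lowest, each within counting error. Without Hist1h1c the H1 sum changed from 0.11 to -0.47 (-1.36 to 0.37) in the DAXX knockout. The testis forms Hist1h1t, with 1, 0 and 0 reads, and Hist1h2ba, with 7, 4 and 1, were near the floor.

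How the annotated transcripts end was set beside their levels, since a poly(A) signal is what a tailed histone transcript would use. For the 48 transcripts of equal length in M21, 16 end within 100 bases behind the stem-loop. Of these, 0 carry a poly(A) signal (AATAAA or ATTAAA) in their last 40 bases. Their ends lie 3 to 57 bases behind the motif, so in most of them those 40 bases reach into the motif. The 0 thus follows in part from how this class is defined. Another 9 extend farther, of which 7 carry such a signal. The last 30 bases of 3 of these and of Hist2h2be, which lacks the motif, are shown with the signal in capitals.
Hist1h1c: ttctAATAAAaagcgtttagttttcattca
Hist1h4i: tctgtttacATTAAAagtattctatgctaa
Hist3h2ba: attAATAAAtttggttcaattttggccaca
Hist2h2be: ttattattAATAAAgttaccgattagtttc
Transcripts that end near the stem-loop had a median of 1.57 CPM per kilobase (0.374 to 6.46) and those that extend had 1.14 (0.0584 to 6.02), with wide overlap. The genes with the most reads in H1 and H4, Hist1h1c and Hist1h4i, are both of the extended kind. Reads on the 16 short transcripts were 247, 219 and 299, with log2 folds of 0.24 (-0.03 to 0.51) and 0.34 (0.10 to 0.59). Reads on the 9 extended ones were 219, 183 and 195, with 0.15 (-0.14 to 0.44) and -0.10 (-0.39 to 0.19). The other 23 transcripts hold no motif, and 5 of them carry a signal. They had 241, 241 and 275 reads, with 0.41 (0.15 to 0.67) and 0.26 (0.004 to 0.51). The short class holds 6 H2A transcripts, the extended class 1 and the class without a motif 7, so end and histone type are not separate here.

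**Figure D4:**
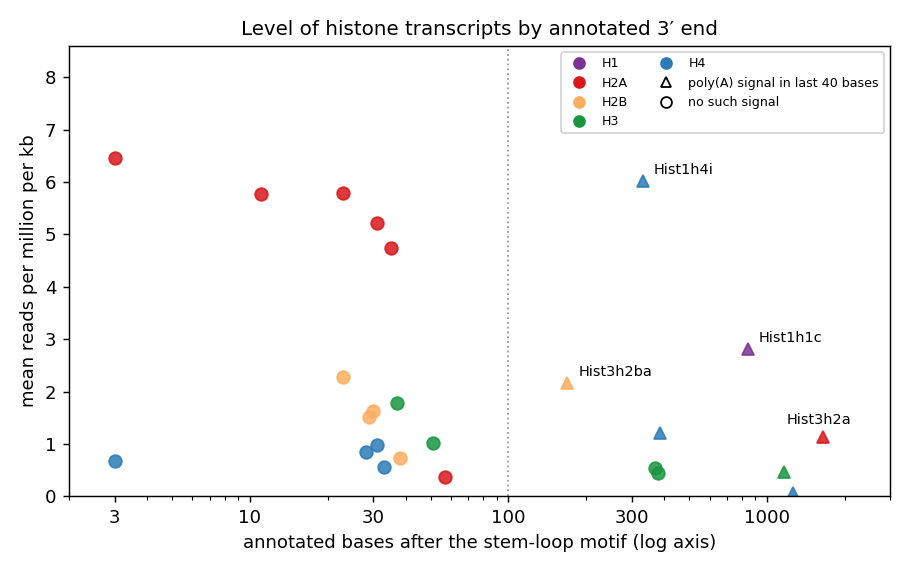
Mean level in CPM per kilobase of the length-matched histone transcripts with a stem-loop motif, against the annotated bases behind the motif (log axis), coloured by histone type; triangles carry a poly(A) signal in the last 40 bases and the dotted line marks 100 bases. All transcripts left of the line lack the signal, for which their short ends leave little room. The levels on the 2 sides of the line overlap, with medians of 1.57 and 1.14.

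The genes that make, process and remove histone messages had median log2 folds of 0.02 and -0.01 against wildtype. All 33 of this list passed the level filter and 0 were called in any comparison. Over all filtered genes 2.04%, 1.84% and 1.13% were called. At such shares 0 called in a list of this size is no result about the list, and the same holds for each list below with 0 called. Slbp had 2067, 1567 and 1861 reads, with 0.01 (-0.08 to 0.11) and -0.08 (-0.18 to 0.01). Npat, a coactivator of histone gene transcription, stood at -0.07 and -0.09. Lsm11, of the U7 particle, had 318, 195 and 202 reads, and its folds of -0.30 (-0.56 to -0.03) and -0.59 (-0.85 to -0.33) were below no change in both. Papola, a poly(A) polymerase, stood at 0.12 in each.

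Genes of the S phase machinery, which rise with DNA copying in the cell cycle, were 41 in number, all past the filter and 0 called. Their summed CPM was 9020 in wildtype, 10022 in DAXX-/- and 10001 in ATRX-/-, a log2 fold of 0.15 (0.14 to 0.16) in each. The medians were 0.08 and 0.08, with 29 and 25 of the 41 genes above 0. Mcm5, a subunit of the replicative helicase, stood at 0.27 and 0.23, and Pcna, the sliding clamp, at 0.25 and 0.18, while Rfc4, of the clamp loader, stood at -0.15 (-0.29 to -0.02) and -0.41 (-0.55 to -0.27). The chaperones that carry new histones to DNA, 19 past the filter, had medians of 0.08 and 0.15, and Nasp stood at 0.15 and 0.16. The medians of these lists lay on the same side as the H2A sum by smaller amounts, and their part in it was not tested.

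Of the 20 replication-independent histone genes listed, 11 passed the filter and 0 were called, with medians of 0.19 and 0.30. H2afy, for macroH2A1, stood at 0.65 (0.57 to 0.74) and 0.68 (0.59 to 0.76). H3f3b, for H3.3, was lower at -0.36 (-0.41 to -0.32) and -0.37 (-0.41 to -0.33), and H3f3a, for the same protein, stood at 0.19 and 0.20. H2afz stood at 0.22 and -0.01. The H2A variant genes H2afx and H2afy thus moved by as much as or more than the H2A cluster sum.

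RNAs listed as lacking a poly(A) tail, such as small nucleolar RNAs, numbered 107 in the tables. Of these, 13 and 11 passed the filter in the comparisons with wildtype. The nuclear RNA Malat1 dominated them, with 6209, 2742 and 1851 reads, and was called lower in the ATRX knockout, at -1.68 (-1.75 to -1.60). Without it the other 106 summed to 62.5, 87.6 and 68.4 CPM, a log2 fold of 0.49 (0.36 to 0.62) in DAXX-/- and 0.13 (-0.00 to 0.26) in ATRX-/-. Neat1, another nuclear RNA, gave 22.7, 51.8 and 36.8 CPM of that sum, with log2 folds of 1.19 (0.99 to 1.39) and 0.70 (0.50 to 0.90). Rpph1, the RNA of ribonuclease P, went the other way, with 192, 57 and 123 reads and folds of -1.34 (-1.79 to -0.91) and -0.57 (-0.91 to -0.24). These RNAs thus did not move as a group, and their part in the histone values was not tested. Whether the Neat1 reads come from a tailless form was also not tested. The sum of the 106 can therefore not be read as one of tailless RNAs alone.

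Markers of stem cells were present in all 3 libraries, with 12 of 12 past the filter, 0 called and summed CPM of 6555, 7240 and 7154. Endoderm markers summed to 762, 312 and 483 CPM, with 0, 3 and 1 of 14 at 0 reads (Sox17, Foxa2 and Afp in DAXX-/-, Afp in ATRX-/-), and 11 of the 12 past the filter were called lower in DAXX-/- and 3 in ATRX-/-. Feeder fibroblast markers summed to 1394, 1697 and 1709 CPM, nearly all from Fn1, with 1, 4 and 4 of 12 at 0 (Lum in every library, and Col3a1, Postn and Dcn in both knockouts). Of the 8 past the filter, Col1a1, Col1a2, Acta2 and Tagln were called lower in DAXX-/- and Acta2 in ATRX-/-. The wildtype library thus held more endoderm marker RNA than the knockouts, and the part of this in the H2A difference was not tested.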

How the data were processed

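Polyadenylated RNA of 3 mouse embryonic stem cell clones was sequenced, with 1 TruSeq library each. The values are the read counts per transcript as deposited by the authors, not normalised. The tools named are Bowtie 1.1.2 and SAMtools, and the build is GRCm38.p4, per the submitters' processing notes. The sources used here do not state alignment settings, read length, use of strand or the treatment of reads with several equal positions. Near-identical copies can therefore exchange reads. Sums over a histone type are more secure than single genes against such exchange, provided that each read was counted once. A read counted at several copies would enter a sum more than once, and the interval of that sum would be too narrow. Of the 65 genes, 22 overlap another annotated gene, 19 of them on the opposite strand.

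Counts were summed per symbol and scaled by TMM (edgeR 4.0.16, R 4.3.3) over 24006 symbols. Intervals of folds and of shares are exact Clopper-Pearson intervals at 95%, and those of summed counts are exact Poisson intervals. With 1 library per group and 0 residual degrees of freedom, genotypes were not tested and no p-value was computed. Reads are treated as independent, although PCR copies and any reads counted at several positions are not. A count of 0 is given a limit of 3 counts. Calling was tested on simulated Poisson counts, with changes set only in genes of at least 5 CPM. Most members lie below that level, so the simulation does not show how calling performs at their depth. Lengths equal between the tables and GENCODE M21 were found for 41543 of 48843 transcripts (85.1%), and shared windows and transcript ends were compared only in these. Windows shared with the other transcripts are therefore not counted. The stem-loop of histone genes was searched in their M21 transcripts of any length.

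The genes named were the 4 with the highest mean CPM of each type, any called, and the 3 highest and 3 lowest measured folds of each comparison, with up to 4 genes of highest mean CPM and the called genes of each other list. Hist1h2aa, Hist1h2ah, Hist1h2ao, Hist2h2aa2, Hist2h2ab, Hist2h2ac, Hist3h2a, Hist1h2ba, Hist1h2bp, Hist2h2be, Hist1h1t, Hist1h4a, Slbp, Npat, Lsm11, Pcna, Rfc4, H2afy, Foxa2, Afp, Lum, Col3a1, Postn, Dcn and Trim17 lie outside that rule and were named after their values were seen. Members and lists were chosen with earlier results of these data known. Alternatives were total counts, DESeq2 1.42.0 size factors, no filter, a filter of 5 CPM, a 1.5-fold limit, the most abundant transcript and counts thinned to the smallest library.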

Additional observations from a re-analysis of the deposited data

How the results depend on the processing

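No member was called under any of the 7 alternatives. The summed H2A fold stayed between 0.38 and 0.47 in the DAXX knockout and between 0.41 and 0.48 in the ATRX knockout over the 5 settings that rescale or recount it, with an interval above 0 in 5 of 5. The median fold of the members was less stable. In the DAXX comparison it was 0.17 with total counts, which lowered the median of all genes there by 0.10, and 0.00 with no filter on low counts. In the ATRX comparison it was 0.060 with no filter and 0.14 after thinning. Between the knockouts it was -0.28 at 5 CPM, from 2 genes. With the most abundant transcript, Hist1h2bq stood at -0.52 against wildtype and -1.27 between the knockouts. Beside these, 115 summary values and 322 single-gene values met the rule for no change. For folds the rule was to stay inside the reported interval, and for numbers of called members to equal the reported 0. Medians had to move by no more than the counting error of the summed reads of all members. The H2B sum in the ATRX comparison was among the unchanged values. Its interval included no change under total counts, DESeq2 size factors, the most abundant transcript and thinning, but not as reported.

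Further alternatives were chosen after seeing the data. Without Hist1h1c, H1 stood at -0.47 in the DAXX comparison and 0.73 between the knockouts. With transcripts of at most 50% shared windows, H2B stood at -0.33 and -0.27 against wildtype, H2A at 0.53 (-0.01 to 1.06) in the DAXX comparison, and H3 at 0.87 and 0.29 against wildtype and -0.58 between the knockouts. The cause was not tested. No paired analysis was possible because each group has 1 library. Depth limits every single gene here, since 28, 34 and 27 of the 65 had under 10 reads.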

Other observations

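In 4 H2B genes the tables hold a pair of transcripts. Only in Hist1h2bp does a transcript of the pair end within 100 bases behind the stem-loop. That transcript had 6, 5 and 2 reads in wildtype, the DAXX knockout and the ATRX knockout. The Hist1h2bp transcript with a poly(A) signal had 7, 7 and 10. Sequence shared by the 2 transcripts was not measured, so reads of one can fall on the other. The counts are too few to show a shift between them. Hist1h4a had 5, 1 and 11 reads, the widest spread between the knockouts among H4 genes, below the level filter in all libraries.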
